A study of Mus musculus with 6 samples.

Results

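The 46 genes described here encode the machinery that takes a cell from G1 into S phase and copies its DNA. They were chosen by name, from gene function, as the rows of the series table whose symbol is one of 46 E2F, licensing, firing, polymerase, nucleotide synthesis and chromatin assembly genes. All 46 were found once each among the 51810 genes of that table, and all 46 passed the filter on low counts. They were measured by mRNA sequencing in medullary thymic epithelial cells that the labels call mTEChi, sorted at 75000 cells per sample from mice aged 4 to 5 weeks. The 3 WT libraries carry the genotype P53-WT and the title word NoCre, and the 3 cKO libraries carry the genotype P53-cKO. No agent or treatment is named for either group. The labels name neither the Cre driver nor the floxed alleles, and whether every library stands for a separate animal is not stated. The p-values therefore rest on the spread among these libraries, part of which may be technical.

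Entry into S phase is driven by the E2F transcription factors, which the retinoblastoma protein holds back until cyclin-dependent kinases phosphorylate it. E2f1 and E2f2 activate the genes of replication, and E2f7 and E2f8 repress them later in S phase. In G1 the origin recognition complex, CDC6 and CDT1 load the MCM2-7 helicase onto origins (licensing), and in S phase the kinases DBF4-CDC7 and cyclin E-CDK2, together with MCM10, CDC45 and GINS, switch it on (firing). p53 restrains this step mainly through its target Cdkn1a, which encodes the kinase inhibitor p21. Mature Aire-expressing medullary cells are known to arise from cycling precursors and to divide little themselves.

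Library totals lay between 45457892 and 50128045 counts, and the 46 genes had between 30 and 6789 counts per library, far above a floor of 3 counts. Trp53, the deleted gene, had 66.7, 55.6 and 60.2 TPM in WT (libraries 1, 2 and 3) against 4.65, 4.51 and 4.1 in cKO (TPM, a transcript level corrected for length and depth), so every library matched its label. The gene for p21, Cdkn1a, had 156, 149 and 139 TPM in WT (libraries 1, 2 and 3) against 82.6, 84.9 and 74.5 in cKO, 1.86-fold lower in cKO (log2 fold change −0.90 with SE 0.0782 and adjusted p = 4.45e-04 by edgeR). Its libraries did not overlap between the groups. The 12 markers of medullary epithelium were detected in every library, with a summed level of 36016 to 38436 TPM in WT and 36576 to 37461 in cKO. They include the antigen presentation genes H2-Aa, H2-Ab1 and Cd74, so the sum does not measure purity. Epcam, the surface marker of the enrichment, had 537, 527 and 468 TPM in WT (libraries 1, 2 and 3) against 619, 556 and 589 in cKO. On TPM, but not on counts scaled by TMM, all cKO libraries lay above the WT libraries in Epcam, which was not called (log2 fold change 0.18 with SE 0.0808 and adjusted p = 0.582 by edgeR). Of the 12 markers, 7 were below 0 (51% of all genes tested), with a median of −0.03 and a range from −0.32 to 0.18. By edgeR, 1 was lower and 2 higher at an unadjusted p under 0.05 (4.23% and 4.28% of all genes), and 0 were called. Thymocytes, many of which cycle, are the main other cells of a thymus. Their 15 markers summed to 78.9, 108 and 55.9 TPM in WT and 68.8, 96.5 and 58.4 in cKO, with none at 0. Their log2 fold changes had a median of −0.17, with 12 below 0 (51% of all genes tested). Leaving out 1 library moved that median to between −0.34 (without WT library 3) and 0.19 (without WT library 2). The part of thymocytes in the results was not tested, and the ranges of their sums overlapped between the groups. Summed markers of B cells (52.2 to 62.8 TPM in WT, 52.2 to 57.3 in cKO) and of fibroblasts and endothelium (53.3 to 56.6 and 49.7 to 56.2) overlapped between the groups as well. The 8 myeloid markers summed to 823 to 1072 and 1012 to 1475 TPM, most of it Lyz2. The sum of the 6 red cell markers did not overlap between the groups, with 185 to 203 TPM in WT and 118 to 173 in cKO. On scaled counts, every cKO library lay below every WT library in 2 of the 6 (7.28% of all genes tested). Their median level did overlap, with cKO library 3 (94.7% of the WT mean) above WT library 1 (89.3%). The part of red cells in the results was not tested.

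All 46 genes were transcribed at low to moderate level in mTEChi. Mean levels over the 6 libraries ran from 0.612 TPM for Orc1, the largest subunit of the origin recognition complex, to 68.6 TPM for Gins2, with a median of 9.01 TPM. Below Gins2 came Pcna, the sliding clamp of the polymerases (54 ± 2.73 TPM in WT, SD, n = 3), Uhrf1, which marks newly copied CpG sites for methylation (41 ± 1.88), and the flap endonuclease gene Fen1 (29.8 ± 1.86). Uhrf1 lay between the libraries of Pcna and Fen1 without touching either in WT. At the low end stood Orc1 (0.629 ± 0.0579), Cdc6, the loader of the MCM helicase (1.83 ± 0.182), Chaf1b, a subunit of the histone chaperone CAF-1 (1.95 ± 0.316), and the helicase activator Cdc45 (2.78 ± 0.433). Cdc6 and Chaf1b did not differ beyond their spread.

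Subunits that act in 1 complex were not equally abundant as transcripts. Within the MCM2-7 helicase, Mcm5 (22.7 ± 2.02 TPM in WT), Mcm4 (22 ± 1.07) and Mcm6 (20.6 ± 1.75) overlapped in their libraries. Mcm3 (16.2 ± 0.79) lay below them, Mcm7 (12.2 ± 0.545) below Mcm3, and Mcm2 was lowest with 6.83 ± 0.287 TPM. Among the clamp loader genes, Rfc2 (17.4 ± 1.23) and Rfc5 (14.8 ± 0.591) lay above Rfc4 (6.74 ± 1.5) and Rfc3 (4.35 ± 1.38), and the last pair overlapped. Of the E2F genes, E2f2 stood highest with 19.5 ± 1.92 TPM, E2f7 had 6.04 ± 0.433, E2f1 4.54 ± 0.133 and E2f8 3.12 ± 0.533, and none of the 4 overlapped with its neighbour in WT.

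Several of these levels are uncertain, because counting ignored strand and gave a read that touches 2 genes to both. Gins2, a subunit of the GINS part of the helicase, had 69.9 ± 8.88 TPM in WT against 5.33 ± 0.619 for Gins1 and 6.13 ± 0.493 for Gins3, and 67.3% of its exon bases also lie in exons of Gse1 on the other strand, which had a mean of 9267 counts. Fen1 shares 78.8% of its exon bases with the antisense gene Gm10143 (mean 1374 counts), and Chaf1a, a CAF-1 subunit, shares 52.5% with Ubxn6 (mean 1416 counts). Smaller shares were found for Ccne2 with Ints8 (17.4%), Rfc2 with Lat2 (15.1%), Rfc4 with Eif4a2 (12.7%), E2f8 with Gm2788 (11.2%), Orc1 with Gm12743 (10.8%) and Rfc5 with Wsb2 (10.7%). How many reads of these genes came from the partner was not tested. Among the 37 genes with at most 10% of shared exon bases, Pcna had the highest level.

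**Figure D1:**
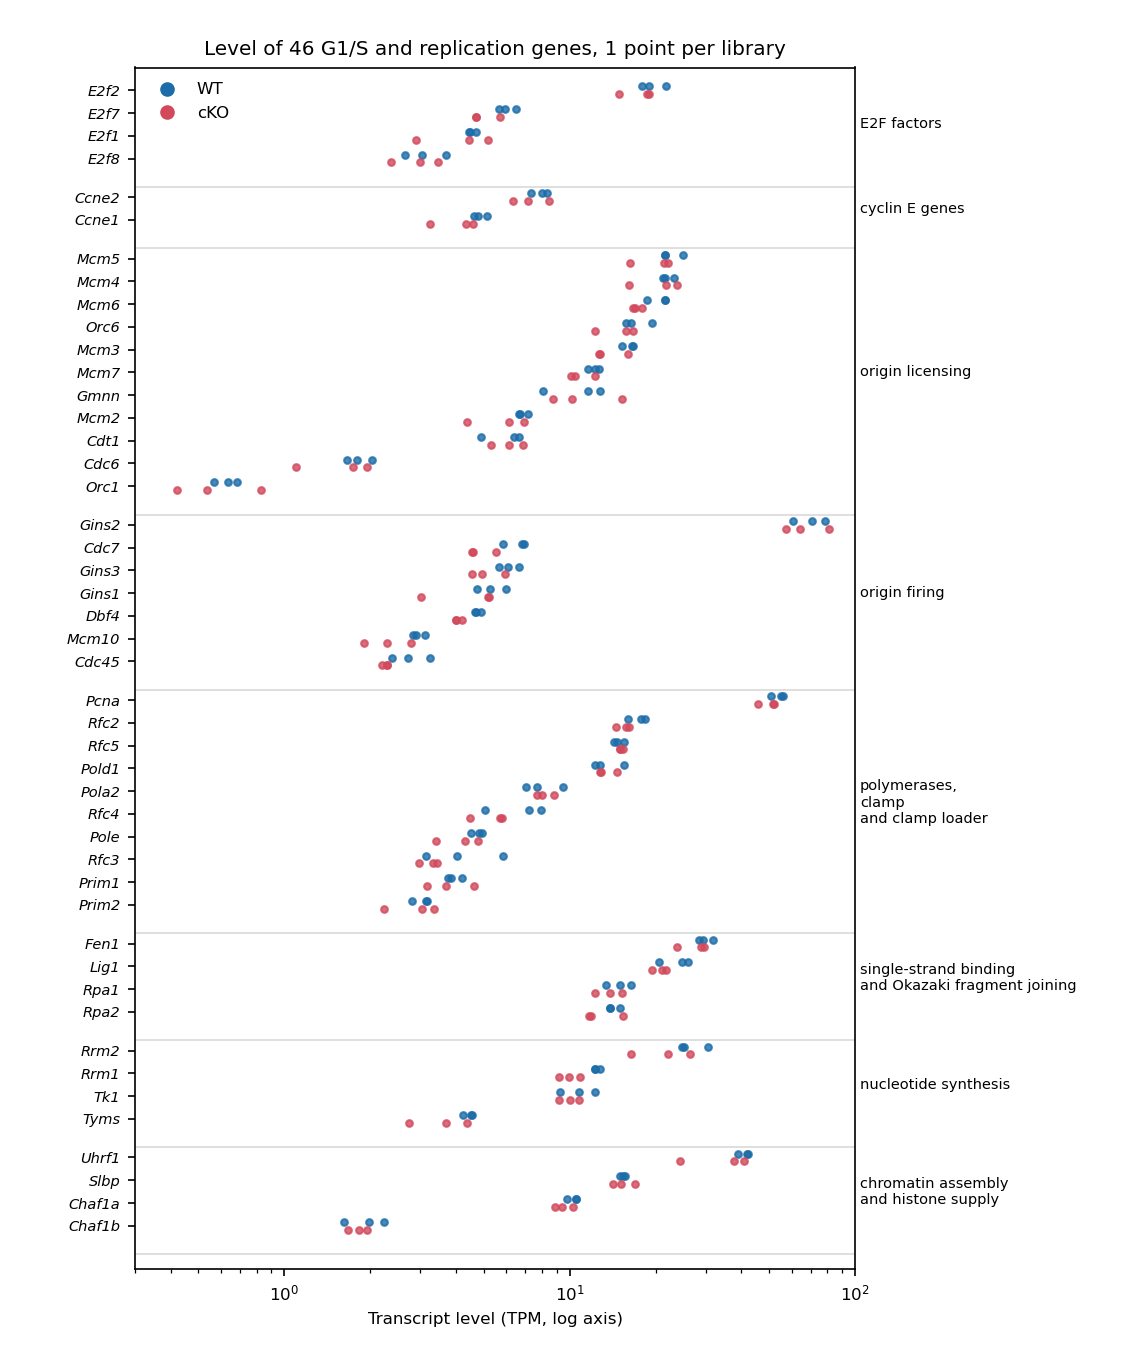
Level of each of the 46 genes in TPM on a log axis, 1 point per library, WT in blue and cKO in red, grouped by role and ordered by WT mean. Points run from Orc1 at the left to Gins2 at the right, and the blue and red points of most genes lie close together relative to the distance between genes.

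Most of these genes had a slightly lower mean level in cKO than in WT libraries, but the differences were small and no gene passed the test. Log2 fold changes of cKO over WT lay between −0.44 (Rfc3) and 0.06 (Gmnn), with a median of −0.19, which is a change of −12.1%. The value was below 0 in 43 of the 46 genes, against 51% of all 28543 genes tested, whose median was −0.01. The 3 genes above 0 were Gmnn, Cdt1 and Rfc5. By edgeR's quasi-likelihood test with Benjamini-Hochberg adjustment over all genes, 0 of the 46 were called lower and 0 higher at an adjusted p of 0.05, where 0.035% of all genes tested were called lower and 0.0245% higher (0.0596% in either direction). The adjusted p ran from 0.301 (Rrm1) to 0.998. DESeq2 also called none of the 46, where it called 0.224% of its genes lower and 0.585% higher. Limma-voom called none of the 46 either, where it called only 5 of all 28543 genes lower and 0 higher. At an unadjusted p under 0.05 there were 6 lower genes, namely Rrm1, Cdc7, Mcm6, E2f7, Mcm10 and Mcm3, and 0 higher ones, against 4.23% and 4.28% of all genes. In a fit with replicate blocks, 13 genes were lower at an unadjusted p under 0.05, where 5.9% of all genes were. None was called after adjustment, where 0.228% of all genes were called lower, 0.483% higher and 0.711% in either direction. Standard errors of the log2 fold changes in the fit without blocks were 0.0879 to 0.357 (median 0.133), close to the size of the differences themselves. In a bulk library, fewer cycling cells and less RNA of these genes per cell cannot be told apart.

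Groups can also be compared by whether their libraries overlap. On scaled CPM, which are read counts relative to the library total after TMM scaling, every cKO library lay below every WT library in 11 of the 46 genes, against 7.28% of all genes tested, and in none did every cKO library lie above (7.14% of all genes). The 11 were E2f7, Ccne1, Mcm5, Mcm6, Mcm10, Cdc45, Cdc7, Dbf4, Pcna, Rfc2 and Rrm1. On the deposited TPM values 7 of them remained, where 6.06% of all genes with a TPM did so. E2f7, Mcm5, Pcna and Rfc2 overlapped on that scale.

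**Figure D2:**
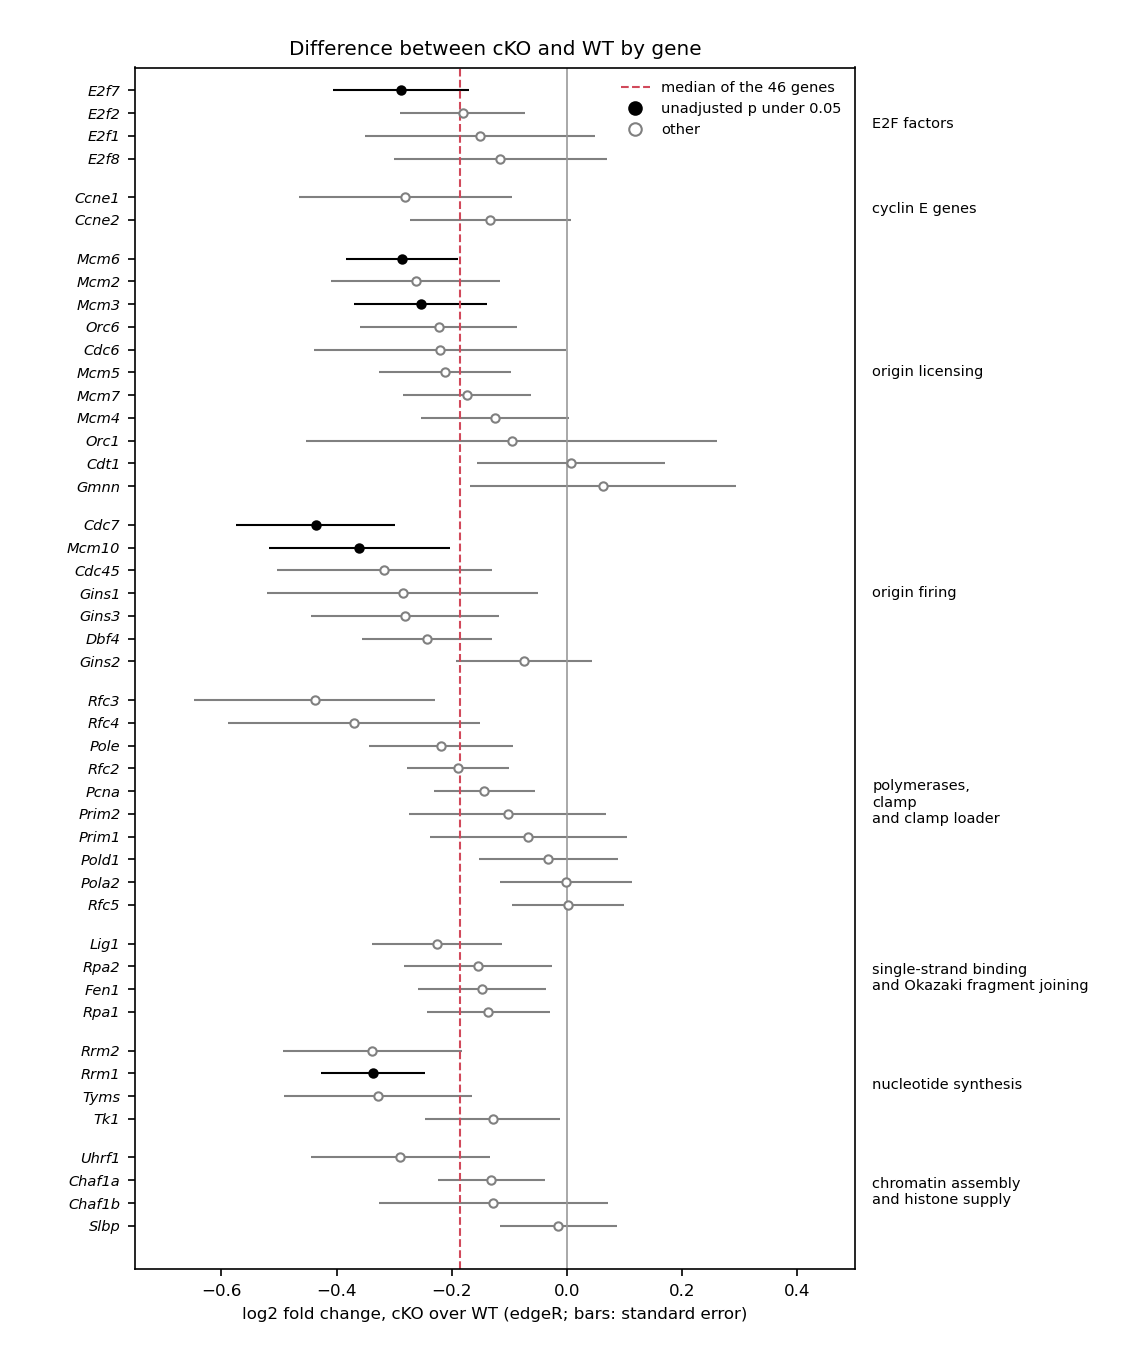
Log2 fold change of cKO over WT by edgeR for each of the 46 genes, with bars of 1 standard error, grouped by role. Filled points mark the 6 genes with an unadjusted p under 0.05, none of which passed after adjustment, and most points lie left of 0, around the dashed median of −0.19.

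The 4 E2F genes and both cyclin E genes had negative log2 fold changes, and none passed. Among the E2F genes the repressor E2f7 (ENSMUSG00000020185, chromosome 10, 110745439 to 110787384 in mm10) had the smallest p, with 23.1, 23.2 and 26.1 scaled CPM in WT (libraries 1, 2 and 3) against 22.3, 18.2 and 18.8 in cKO (log2 fold change −0.29 with SE 0.118 and adjusted p = 0.537). Its 3 cKO libraries all lay below the WT libraries, cKO library 1 by a small margin. The activator E2f2 (chromosome 4, 136172394 to 136196057), the most abundant of the 4, had 45.6, 42.1 and 39.2 in WT and 40.2, 39.3 and 32.4 in cKO (log2 fold change −0.18 with SE 0.108 and adjusted p = 0.70), and cKO library 3 was the lowest. E2f1 and E2f8 had log2 fold changes of −0.15 (SE 0.20) and −0.12 (SE 0.185), which were 0.05 and 0.00564 without cKO library 3. E2f8 was also 0.05 without WT library 2. Ccne1, a cyclin that activates CDK2 at the end of G1 (chromosome 7, 38097984 to 38107534), had 5.46, 6.22 and 5.48 in WT and 5.29, 3.7 and 5.14 in cKO (log2 fold change −0.28 with SE 0.185 and adjusted p = 0.73). Here cKO library 2 was the lowest and the other cKO libraries lay just under the WT libraries. Its paralog Ccne2 (chromosome 4, 11191351 to 11204779) had 12.5, 12.7 and 11.4 in WT and 12.8, 10.7 and 9.84 in cKO (log2 fold change −0.13 with SE 0.139 and adjusted p = 0.852), with overlap between the groups.

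Origin licensing genes gave 9 of 11 values below 0, with a median of −0.21, and all 6 subunits of the MCM2-7 helicase were among them. Mcm6 (ENSMUSG00000026355, chromosome 1, 128331590 to 128359664) had 43.4, 45.9 and 38.7 scaled CPM in WT (libraries 1, 2 and 3) against 36.4, 34 and 34.6 in cKO (log2 fold change −0.29 with SE 0.097 and adjusted p = 0.433). The cKO libraries were close to each other and below all WT libraries. Mcm5, whose mean TPM was the highest of the licensing genes by a small margin over Mcm4 (chromosome 8, 75109569 to 75128439), had 43, 39.1 and 38.4 in WT and 38.2, 36.9 and 29.1 in cKO (log2 fold change −0.21 with SE 0.114 and adjusted p = 0.662). Its cKO libraries 1 and 2 came close to the lowest WT library, and cKO library 3 stood well below. Mcm3 had −0.25 (SE 0.115), Mcm2 −0.26 (SE 0.146), Mcm7 −0.17 (SE 0.111) and Mcm4 −0.13 (SE 0.129) as log2 fold changes. Mcm4 was 0.01 without cKO library 3. Orc6, a small subunit of the origin recognition complex, had −0.22 (SE 0.137), and Orc1 −0.10 (SE 0.357) with 30 to 64 counts per library, the fewest of the 46 genes. Orc1 was 0.11 without cKO library 1 and −0.43 without cKO library 3. The loader Cdc6 had −0.22 (SE 0.219), which was −0.02 without cKO library 3, and its partner Cdt1 0.00642 (SE 0.163). Cdt1 was below 0 when scaled by library totals (−0.01), without WT library 3 (−0.11) and without cKO library 1 (−0.08).

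Geminin, encoded by Gmnn (chromosome 13, 24751845 to 24761923), binds CDT1 in S and G2 phase and blocks relicensing. Its transcript had 8.04, 7.74 and 5.26 scaled CPM in WT (libraries 1, 2 and 3) against 5.56, 6.44 and 9.96 in cKO, with cKO library 3 the highest and WT library 3 the lowest of all 6 (log2 fold change 0.06 with SE 0.231 and adjusted p = 0.968). Without cKO library 3 the log2 fold change was −0.22, and without WT library 3 it was −0.11.

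The promoters of these genes are known for binding sites of the E2F factors. RefSeq promoter windows (GRCm38.p6, the mm10 assembly, 250 bases before to 50 after each start) were matched by symbol for 38 of the 46 genes. They were searched on both strands for the E2F words TTTCCCGC, TTTCGCGC, TTTGCCGC and TTTGGCGC. At least 1 word was found in 14 of the 38 genes (36.8%), against 2.6% of the 27025 genes with a window of the same length and 2.27% of all windows. The word TTTGAA, the core of the CHR element of G2 and mitosis genes, was in 8 of the 38 (21.1%) and in 20.2% of all genes. The stretches below show where the E2F words sit in genes of licensing, the E2F family and chromatin. They touch no exon of the annotation used for counting. Each is printed 5′ to 3′ on the strand of the gene, from up to 30 bases before the first word to up to 30 after the last within the 250 bases upstream, with the words in capitals.
Mcm5, chr8:75109326-75109397, plus strand: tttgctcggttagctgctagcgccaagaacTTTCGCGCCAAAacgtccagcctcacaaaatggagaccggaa
Mcm6, chr1:128359715-128359845, minus strand: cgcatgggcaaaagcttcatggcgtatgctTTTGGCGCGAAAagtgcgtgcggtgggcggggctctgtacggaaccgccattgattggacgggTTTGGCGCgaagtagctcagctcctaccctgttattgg
Cdc6, chr11:98907983-98908050, plus strand: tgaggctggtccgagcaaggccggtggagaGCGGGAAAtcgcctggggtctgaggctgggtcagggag
E2f7, chr10:110745211-110745278, plus strand: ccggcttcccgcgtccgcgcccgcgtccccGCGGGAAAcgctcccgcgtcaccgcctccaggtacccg
Uhrf1, chr17:56304098-56304165, plus strand: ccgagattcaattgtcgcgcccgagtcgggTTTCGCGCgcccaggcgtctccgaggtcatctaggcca
In Mcm5 and Mcm6 a pair of words on opposite strands overlaps, so the capitals form 1 run. Uhrf1 has 2 RefSeq windows, and its word lies 185 bases before the start of the downstream one, inside the gene span given for counting, while the upstream window holds no word. The Cdc6 stretch also lies inside that gene's span. Log2 fold changes of the 14 genes with a word had a median of −0.22 and the 24 with a window and no word −0.15, with ranges that overlapped. A match is a sequence description, and binding was not measured here.

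Origin firing genes had a median of −0.29, with all 7 values below 0. Cdc7, the kinase that phosphorylates loaded MCM helicase (ENSMUSG00000029283, chromosome 5, 106964322 to 106984432), had 12.5, 11.1 and 12.7 scaled CPM in WT (libraries 1, 2 and 3) against 10.03, 8.26 and 8.5 in cKO (log2 fold change −0.44 with SE 0.139 and adjusted p = 0.409). All cKO libraries lay below all WT libraries, and it was 1.35-fold lower in cKO. Its activating subunit Dbf4 had 17.4, 18.6 and 19 in WT and 15.1, 15 and 16.4 in cKO (log2 fold change −0.24 with SE 0.112 and adjusted p = 0.587), again with no overlap. Mcm10 had 10.3, 10.1 and 9.68 in WT and 9.31, 7.59 and 6.52 in cKO (log2 fold change −0.36 with SE 0.157 and adjusted p = 0.569), and cKO library 3 was the lowest. Cdc45 had a log2 fold change of −0.32 (SE 0.186), Gins1 −0.29 (SE 0.236) and Gins3 −0.28 (SE 0.163), and Gins1 was −0.08 without cKO library 3. Gins2 (chromosome 8, 120578633 to 120589304) had 138, 113 and 129 in WT and 144, 113 and 105 in cKO (log2 fold change −0.07 with SE 0.118 and adjusted p = 0.912), and it was 0.02 without cKO library 3. Its reads cannot be told apart from those of Gse1 over most of its exons.

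Polymerase, clamp and clamp loader genes had a median of −0.12 and 9 of 10 values below 0. Pcna (ENSMUSG00000027342, chromosome 2, 132249162 to 132253314), the most abundant of them, had 57.8, 60.3 and 54.5 scaled CPM in WT (libraries 1, 2 and 3) against 54, 53.5 and 48.8 in cKO (log2 fold change −0.14 with SE 0.0879 and adjusted p = 0.705). The cKO libraries were all below the WT libraries by small distances. Rfc2 (chromosome 5, 134581366 to 134601805), which had the smallest p of the role, had 49.9, 46 and 50.2 in WT and 44.3, 42.8 and 41 in cKO (log2 fold change −0.19 with SE 0.0884 and adjusted p = 0.591). Rfc3 had −0.44 (SE 0.209) and Rfc4 −0.37 (SE 0.219), both with overlapping libraries, and Rfc3 was −0.19 without WT library 1. The catalytic subunit of polymerase epsilon, Pole, had −0.22 (SE 0.125), while that of polymerase delta, Pold1, had −0.03 (SE 0.121). Primase genes Prim1 and Prim2 had −0.07 (SE 0.172) and −0.10 (SE 0.171), and Pola2, the regulatory subunit of polymerase alpha, had −0.00207 (SE 0.114). Rfc5 had 0.00186 (SE 0.0966). Leaving out 1 library turned the sign of Prim1, Prim2, Pold1, Pola2 and Rfc5. Those values lay between −0.03 (Rfc5 without WT library 1) and 0.10 (Pola2 without WT library 1).

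The 4 genes of single-strand binding and Okazaki fragment joining all had values below 0, between −0.23 and −0.14. Lig1, the ligase that seals Okazaki fragments (ENSMUSG00000056394, chromosome 7, 13277283 to 13311433), had 37.8, 50.5 and 47.3 scaled CPM in WT (libraries 1, 2 and 3) against 40.3, 38.6 and 37 in cKO (log2 fold change −0.23 with SE 0.112 and adjusted p = 0.628). WT library 1 lay within the range of the cKO libraries. Fen1 (chromosome 19, 10199132 to 10204169), which trims the flaps before ligation, had 29.5, 35.2 and 31.6 in WT and 31.1, 30.2 and 25.8 in cKO (log2 fold change −0.15 with SE 0.111 and adjusted p = 0.772), and cKO library 3 was apart from the other 5. Rpa1 and Rpa2, subunits of the protein that coats single-stranded DNA, had −0.14 (SE 0.107) and −0.15 (SE 0.128).

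Nucleotide synthesis genes had a median of −0.33 over 4 genes, which was −0.18 without cKO library 3, and Rrm1 had the smallest p of the 46. Rrm1 (ENSMUSG00000030978, chromosome 7, 102441695 to 102469771), the large subunit of ribonucleotide reductase, had 57.9, 64.1 and 60.1 scaled CPM in WT (libraries 1, 2 and 3) against 47.5, 51.7 and 45 in cKO, 1.26-fold lower in cKO (log2 fold change −0.34 with SE 0.0903 and adjusted p = 0.301). Every cKO library lay below every WT library. Rrm2 (chromosome 12, 24708241 to 24714146), the small subunit that is made in S phase, had 29.5, 38.4 and 31 in WT and 26.6, 31.4 and 20.3 in cKO (log2 fold change −0.34 with SE 0.155 and adjusted p = 0.587). Its cKO library 2 lay inside the WT range and cKO library 3 was far below. Tyms, thymidylate synthase, had 11.1, 12.6 and 12.3 in WT and 9.75, 11.4 and 7.44 in cKO (log2 fold change −0.33 with SE 0.163 and adjusted p = 0.624), with the same library lowest. The salvage kinase gene Tk1 had −0.13 (SE 0.117).

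Chromatin assembly and histone supply genes had a median of −0.13 over 4 genes. Uhrf1 (ENSMUSG00000001228, chromosome 17, 56303321 to 56323486) had 71.2, 81.8 and 79.8 scaled CPM in WT (libraries 1, 2 and 3) against 75.2, 69 and 46.3 in cKO (log2 fold change −0.29 with SE 0.155 and adjusted p = 0.666). Its cKO libraries 1 and 2 were within or near the WT range and cKO library 3 was far below it, and leaving that library out gave a log2 fold change of −0.10. Chaf1a and Chaf1b had −0.13 (SE 0.093) and −0.13 (SE 0.198). Slbp, the protein that binds the stem-loop of replication histone mRNA, had 39.1, 42.4 and 42.4 in WT and 37.3, 39.4 and 46 in cKO (log2 fold change −0.01 with SE 0.102 and adjusted p = 0.986), and leaving out 1 library gave values from −0.11 to 0.05. Chaf1b was 0.00677 without WT library 2.

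**Figure D3:**
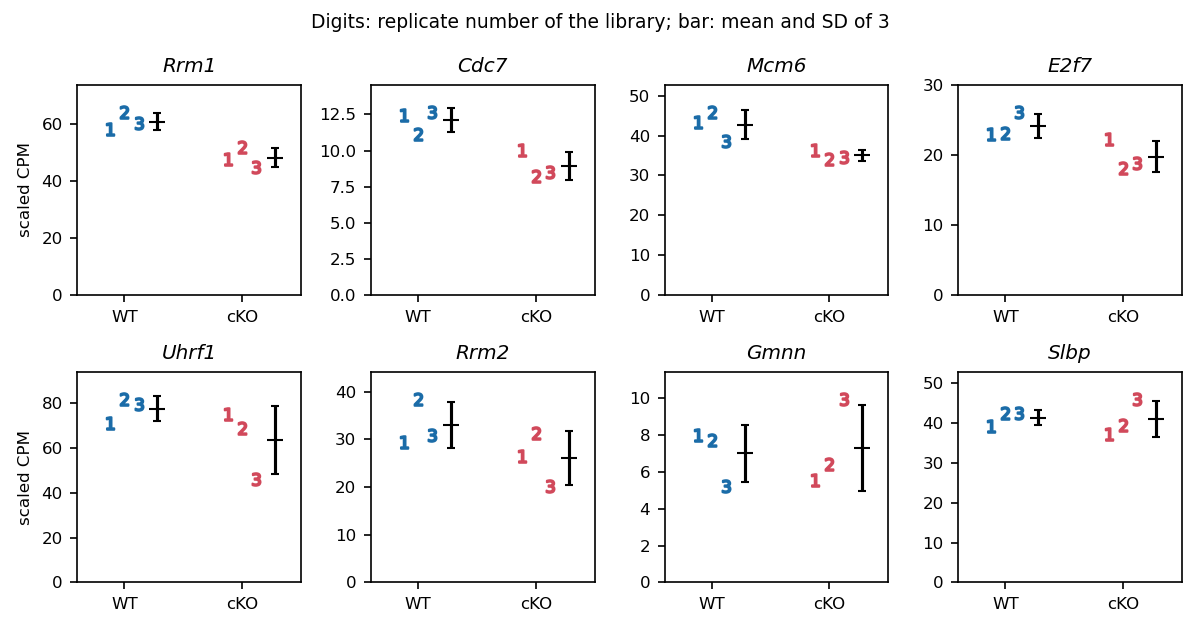
Scaled CPM of 8 of the 46 genes in each library, with the replicate number as the plotting symbol, WT in blue and cKO in red, and black bars for the mean and SD of 3 libraries. Rrm1, Cdc7, Mcm6 and E2f7 show no overlap between the groups, Uhrf1 and Rrm2 are low mainly in cKO library 3, and Gmnn and Slbp are highest there.

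One library stood apart from the rest for these genes. Relative to the WT mean of each gene, the median level of the 46 genes was 98.3%, 105% and 96.9% in WT (libraries 1, 2 and 3) against 91.9%, 93% and 80.9% in cKO. All 3 cKO values lay below all 3 WT values, and cKO library 3 lay lowest by a wide margin. It was the lowest of the 6 libraries in 25 of the 46 genes, where 18% of all genes tested were lowest in it, and a cKO library was lowest in 40. By role, it had the lowest median in all but the cyclin E genes, where cKO library 2 had 76.3% and cKO library 3 85.2%. For origin firing genes the cKO libraries were close together, with 83%, 81.8% and 80.8% (libraries 1, 2 and 3). Without cKO library 3 the median log2 fold change of the 46 genes was −0.11, against −0.19 with all libraries, and 39 genes were below 0. In the same fit 51.6% of all genes tested were below 0. Mki67, a marker of cycling cells outside the 46 genes, had 207, 208 and 213 in WT and 193, 197 and 147 in cKO scaled CPM (log2 fold change −0.23 with SE 0.103 and adjusted p = 0.586), lowest in the same library. Summed thymocyte markers were 58.4 TPM in cKO library 3, close to the 55.9 TPM of WT library 3 and below the other 4 libraries. Summed myeloid markers were highest in cKO library 3, with 1475 TPM against 823 to 1175 in the others. Their median there was 100% of the WT mean, below WT library 2 (116%) and cKO library 2 (110%). For the medullary epithelium markers the median was highest in cKO library 3 (106% of the WT mean). Their sum in that library (37461 TPM) was below that of WT library 3 (38436 TPM). Whether any of these have a part in the low level of cKO library 3 was not tested.

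**Figure D4:**
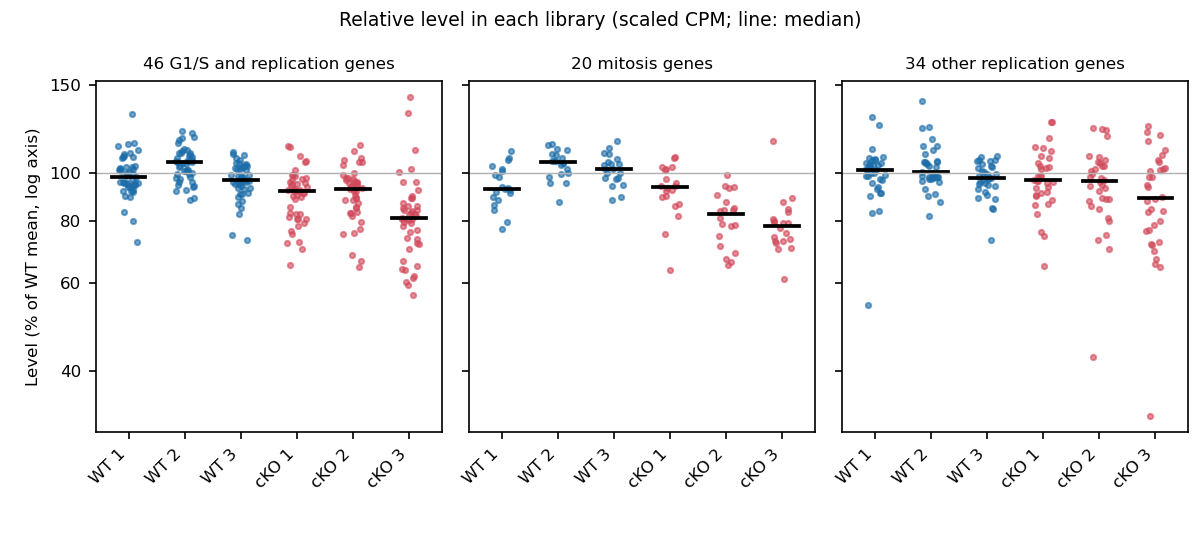
Level of each gene in each library as a percentage of its WT mean (scaled CPM, log axis), for the 46 genes, 20 mitosis genes and 34 other replication genes, with a black line at the median. The lines of the 46 genes run from 105% in WT library 2 to 80.9% in cKO library 3, and cKO library 3 has the lowest line in all 3 panels.

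Mitosis genes act later in the same cycle. For the 20 listed the log2 fold changes had a median of −0.24, with all 20 below 0, against 51% of all genes tested. At an unadjusted p under 0.05 by edgeR 9 were lower, against 4.23% of all genes. On scaled CPM every cKO library lay below every WT library in 7 of the 20, against 7.28% of all genes. In the fit reported, edgeR called 0 of the 20, where it called 0.035% of all genes lower. With the replicate block, Ube2c (adjusted p = 0.0173) and Plk1 (adjusted p = 0.0446) were called lower by edgeR, where 0.228% of all genes were. DESeq2 also called 2 of the 20 lower, where it called 0.224% of its genes lower. Without a filter, edgeR called 2 of the 20 lower, where it called 52 of 46386 genes lower. Medians relative to the WT mean were 92.9%, 105% and 102% in WT libraries and 93.6%, 82.6% and 78.3% in cKO libraries. For mitosis genes WT library 1 lay below cKO library 1, whereas for the 46 genes it did not. The difference between both sets was not tested.

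Other genes of the pathway gave medians closer to that of all genes. Of 34 further replication genes, 0 were called lower and 0 higher by edgeR (0.035% and 0.0245% of all genes tested). At an unadjusted p under 0.05, 2 were lower and 1 higher (4.23% and 4.28% of all genes). Their median was −0.08, with 25 below 0 (51% of all genes) and a range from −0.89 (SE 0.418) for Pole2, a polymerase epsilon subunit with few counts, to 0.23 (SE 0.0777) for Rif1, a regulator of replication timing. On scaled CPM, all cKO libraries lay below all WT libraries in 8 of the 34 and above them in 1 (7.28% and 7.14% of all genes). Among the 46 genes these counts were 11 and 0. Dut, the dUTPase that keeps uracil out of new DNA (chromosome 2, 125247190 to 125258608), had the smallest p, with 29.1, 30.5 and 33.6 scaled CPM in WT (libraries 1, 2 and 3) against 25.6, 23.3 and 24.4 in cKO (log2 fold change −0.35 with SE 0.103 and adjusted p = 0.366). All its cKO libraries lay below the WT libraries. Of 23 further regulators of G1/S, 0 were called lower and 0 higher, with 2 lower and 1 higher at an unadjusted p under 0.05, a median of −0.03 and 14 below 0. The shares over all genes are those given for the 34. All cKO libraries lay below all WT libraries in 3 of the 23 and above them in 1. Ccna2, the cyclin of S and G2 phase (chromosome 3, 36564865 to 36572150), had the smallest p, with 71.7, 76.1 and 73.8 in WT and 63.4, 58.2 and 57.9 in cKO scaled CPM (log2 fold change −0.30 with SE 0.0831 and adjusted p = 0.31) and no overlap between the groups. It shares 12.5% of its exon bases with Exosc9. Both lists together hold genes that vary with the cycle, such as Dut and Ccna2, and genes present through it, such as the D cyclins and Rb1. Differences between these lists and the 46 genes were not tested.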

How the data were processed

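The deposited count files hold counts of reads per gene for 55385 genes without any normalization. The submitters' processing notes name TopHat2 2.1.1, SAMtools 1.9, Subread 2.0.1 and the build mm10. Per the file headers, featureCounts 2.0.0 summed exons by gene on Ensembl release 99, ignored strand although the library kit was a stranded one, counted each mate as a read and counted a read for every gene it touches. TPM values were made by the authors in the deposited series table, whose counts equalled those of the files for all 51810 genes. They served for levels between genes, for marker sums and, where named, for per-library values, and no test used them.

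Counts were tested with edgeR 4.0.16 (TMM scaling, filterByExpr, robust quasi-likelihood F test, no covariate) over 28543 genes, with Benjamini-Hochberg adjusted p-values and a threshold of 0.05. The SE was derived as the fold change (log2) over the root of F, and groups are given as mean ± SD. DESeq2 1.42.0 and limma 3.58.1 served as alternatives. The edgeR script was tested on simulated data with larger fold changes than those of the 46 genes. That test does not tell how often differences of their size would be called. No 2 libraries agreed within sampling noise (chi-square per gene 13.4 to 27.8). Libraries with the same replicate number in their titles deviated together from their group means (correlations 0.31, 0.164 and 0.228 over 19390 genes, against −0.304 to 0.103 for other pairs). The labels do not state that the numbers mark animals or batches, so a fit with the replicate number as a block was run as an alternative. SEs and p-values of single genes are from the fit without the block, and so leave out this pairing, unless the block is named. With the block, 13 of the 46 genes rather than 6 were lower at an unadjusted p under 0.05 by edgeR (5.9% and 4.23% of all genes). Exon overlaps were computed with bedtools from the coordinates in the count files.

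The 46 genes and the other lists were chosen with earlier results of these data known, so no list was tested as a set. Genes given in full were, in each role, the one with the smallest p and the one with the highest TPM. Outside the 46 these were the smallest p of each pathway list, Trp53, Cdkn1a, Mki67 and Epcam. Mcm10, Dbf4, Tyms, Gmnn, Slbp, Pole2, Rif1, Ube2c and Plk1 were added after their values were seen. Differences are limited by 3 libraries per group and, for Orc1, by low counts.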

Additional observations from a re-analysis of the deposited data

How the results depend on the processing

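None of the 46 genes, the 34 further replication genes or the 23 further G1/S regulators was called in any of the 14 other fits that were run. Over all genes, 203 were called with the replicate block (0.711%) and 17 in the fit reported (0.0596%). DESeq2 called 177 (0.224% of its genes lower and 0.585% higher), and limma-voom called only 5 of 28543. With the replicate block the median log2 fold change of the 46 genes was −0.19, 42 were below 0, 13 had an unadjusted p under 0.05 (lower), where 5.9% of all genes did, and the smallest adjusted p was 0.0826 (Rrm1). DESeq2 gave a smallest adjusted p of 0.135. The median was −0.18 with size factors, −0.21 with library totals, −0.18 without a filter, −0.19 with a filter of 1 CPM in 3 libraries, which left out Orc1, −0.18 with DESeq2, −0.19 with limma-voom and −0.19 with the genes of the series table only. Leaving out each library in turn gave −0.23 to −0.11, the smallest difference without cKO library 3, and 38 to 45 genes below 0. Over all these fits 32 of the 46 genes stayed below 0. A restriction chosen after seeing the data, to the 37 genes with at most 10% of shared exon bases, gave a median of −0.22, with 35 below 0.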
